A study of Schizosaccharomyces pombe with 4 samples.

Results

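The chaperone and heat shock mRNAs of fission yeast (Schizosaccharomyces pombe) were examined in cDNA libraries made by CRAC, in which RNA is cross-linked to a tagged protein with UV light, purified with it and sequenced. The group was defined by name as 8 genes: ssa1, ssa2 and sks2 for cytosolic Hsp70, hsp90 for Hsp90, and hsp104, hsp16, hsp9 and bip1 as other chaperones and heat shock proteins. All cDNAs assigned to one of these genes on its own strand were taken, 161 of 61252 distinct cDNAs in all, from 6 of the 8 genes. Across the 4 libraries 2029 genes had at least 1 cDNA. No cDNA of these 8 genes lay on the opposite strand or was shared with another gene.

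Mkt1-HTP cells carried the allele mkt1-HTP-KanR in an h+ background with ade6-210, leu1-32, ura4D18 and the insertion otr1R(Sph1):ade6+, the mkt1 gene being fused to the HTP tag (polyhistidine, a TEV protease site and protein A) used for purification. The untagged control strain was h+ too and had leu1-32, ura4D18 and ade6-210 as well as otr1R(Sph1):ade6+, so that both strains share an ade6+ reporter in the outer repeat of a centromere and differ by the tagged allele with its resistance marker. Cultures of both grew at 32 °C in PMG lacking tryptophan before UV irradiation for 42.5 s, with 2 libraries each. Mkt1 is a protein of post-transcriptional gene regulation in yeasts, and the comparison of tagged with untagged cells separates RNA recovered with Mkt1 from RNA that comes through the purification without a tag.

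Depth limited what could be seen. There were 24468 and 26899 distinct cDNAs in the Mkt1-HTP libraries, of which 11875 and 11249 were on mRNAs, whereas there were 1743 and 8142 in the untagged controls, of which 157 and 479 were on mRNAs. An mRNA without a cDNA in the smaller control may therefore have made up to 0.172% of its cDNAs, given 3 counts as the most that a count of 0 allows. No RNA library of the same cells was used here, so that a high recovery with Mkt1 and a high abundance of the mRNA cannot be told apart.

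Chaperones bind unfolded or partly folded polypeptides and help them reach or regain their native state. Hsp70 proteins bind short exposed stretches in a cycle of ATP hydrolysis driven by J-domain partners, Hsp90 acts later on clients such as kinases, Hsp104 pulls proteins out of aggregates, and small heat shock proteins hold unfolded proteins in solution. In yeasts many of these genes are induced by heat through the heat shock factor Hsf1, while several Hsp70 and Hsp90 genes are also strongly transcribed in growing cells. The cells studied here were in exponential growth and were not heat shocked.

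The short stretches printed below hold the deleted bases and the most covered windows that the results come back to. The stretches with capitals are centred on the base or bases deleted most often in the cDNAs of that mRNA, since a cross-linked nucleotide can be skipped by reverse transcriptase. The capitals mark these bases. Those without capitals are the 30 nt windows with the greatest coverage in sks2 and bip1. All are reference sequence from RefSeq assembly ASM294v3, written as DNA in the sense of the mRNA from 5′ to 3′, so that T stands for U.
ssa2, III:2059196-2059225, plus strand, 3′ UTR: catgaagaaaaatcTTttaatgggcggttt
sks2, II:1108313-1108342, plus strand, 3′ UTR: tgaattaagctttcgaaggatttgttcata
hsp90, I:3888710-3888739, minus strand, 3′ UTR: tgcatataatgtttTTcttggattaaagca
bip1, I:1182899-1182928, minus strand, 3′ UTR: tttgtattgcttacttctgctaatggcttt

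Among the cytosolic Hsp70 mRNAs, sks2 had the most distinct cDNAs from Mkt1-HTP cells (37, with 35 for ssa2) and was also the one found in both untagged controls. With near-identical cDNAs counted once, ssa2 came before sks2. sks2 (SPBC1709.05, II:1106396-1108511, plus strand) encodes the Hsp70 that acts at the ribosome on nascent chains, and its single-exon mRNA of 2116 nt has a 3′ UTR of 214 nt. It had 26 and 11 cDNAs in Mkt1-HTP libraries, compared with 2 and 5 in the untagged controls. Scaled to a library of 1000000 distinct cDNAs (CPM) these were 1063 and 409 in Mkt1-HTP libraries, compared with 1147 and 614 in the untagged controls. The groups overlapped, with means of 736 ± 462 CPM in Mkt1-HTP and 881 ± 377 CPM in the controls (SD, n = 2 each). CPM is a share of each library's own total, so that equal CPM does not mean equal amounts of RNA recovered. The log2 fold change of sks2 was -0.11 ± 1.30 (SE), with an adjusted p of 0.96 in edgeR's quasi-likelihood test over 418 genes. This SE, like that of ssa2 below, was worked back from the fold change and the F statistic of the test. Counting near-identical cDNAs once, that is cDNAs chained together by ends within 2 nt of each other, left 8 and 6 in Mkt1-HTP libraries, compared with 1 and 4 in the controls.

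ssa2 (SPCC1739.13, III:2057043-2059331, plus strand), a cytosolic Hsp70 of general protein folding, had 6 and 29 cDNAs in Mkt1-HTP libraries, compared with 1 and 0 in the untagged controls. The CPM were 245 and 1078 in Mkt1-HTP libraries, compared with 574 and 0 in the controls. The single cDNA of control replicate 1, which stood for 574 CPM because of the small size of that library, lay above Mkt1-HTP replicate 1, and the groups overlapped. Its log2 fold change was 2.20 ± 1.90 (SE), with an adjusted p of 0.484 in edgeR. With control replicate 1 left out, the log2 fold change was 6.73, with an unadjusted p of 0.0191 and an adjusted p of 0.15, whereas it was 0.21 without control replicate 2 (adjusted p = 0.898) and 1.12 without Mkt1-HTP replicate 2. Near-identical cDNAs counted once left 6 and 10 in Mkt1-HTP libraries, compared with 1 and 0 in the controls. With mRNA cDNAs in place of all cDNAs as library size, the log2 fold change was -0.30.

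The other cytosolic Hsp70 of this kind, ssa1 (SPAC13G7.02c, I:2295580-2297964, minus strand), had 12 and 7 cDNAs in Mkt1-HTP libraries, compared with 0 and 0 in the untagged controls. Its mean of 375 ± 163 CPM in Mkt1-HTP (SD, n = 2) was at least 1.24-fold higher than the controls, taking 3 counts over both controls as the floor. This bound was 1.02 without control replicate 1, and below 1 without control replicate 2. The 260 CPM of Mkt1-HTP replicate 2 alone were below the 303 CPM of the floor. The bound counts near-identical cDNAs each. Counting them once left 1 and 4 in Mkt1-HTP libraries, compared with 0 and 0 in the controls. With near-identical cDNAs counted once in gene and library alike, the mean lay below 3 counts over both controls, so that the bound did not hold. ssa1 and ssa2 shared 82.6% of aligned positions in their coding sequences, yet none of the 161 cDNA intervals, 18 to 129 nt long, had another exact copy in the genome.

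hsp90 (SPAC926.04c, I:3888558-3891139, minus strand), the single Hsp90 gene of the group, differed widely between replicates, with 2 and 26 cDNAs in Mkt1-HTP libraries compared with 0 and 0 in the untagged controls. These were 81.7 and 967 CPM in Mkt1-HTP, an 11.8-fold gap between replicates of the same strain. The mean was 524 ± 626 CPM in Mkt1-HTP (SD, n = 2), at least 1.73-fold over the controls, a bound of 1.42 without control replicate 1 and below 1 without control replicate 2. It rests on Mkt1-HTP replicate 2, the 81.7 CPM of replicate 1 being below the 303 CPM of the floor. Of the 26 cDNAs of replicate 2, 10 were left when near-identical cDNAs were counted once, so that replicate 2 stayed above the 2 of replicate 1.

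bip1 (SPAC22A12.15c, I:1182693-1185485, minus strand), the Hsp70 of the endoplasmic reticulum lumen, showed the opposite order, with 22 cDNAs in Mkt1-HTP replicate 1 and 1 in replicate 2, compared with 0 and 0 in the untagged controls. Its CPM of 899 and 37.2 in Mkt1-HTP differed 24.2-fold, and 13 and 1 cDNAs were left when near-identical ones were counted once. The mean of 468 ± 609 CPM in Mkt1-HTP (SD, n = 2) was at least 1.54-fold over the controls, a bound of 1.27 without control replicate 1 and below 1 without control replicate 2. It rests on Mkt1-HTP replicate 1, the 37.2 CPM of replicate 2 being below the 303 CPM of the floor. The bound counts near-identical cDNAs each. With them counted once in gene and library alike, the bip1 mean lay below the floor of 3 counts over both controls, so that the bound did not hold.

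hsp9 (SPAP8A3.04c, I:5319957-5320676, minus strand), a small stress-induced protein, was the most even of the detected mRNAs, with 6 and 5 cDNAs in Mkt1-HTP libraries, compared with 0 and 0 in the untagged controls. Its 245 and 186 CPM in Mkt1-HTP were below the 303 CPM that 3 counts over both controls stand for, so no fold can be given. hsp104 (SPBC16D10.08c, the disaggregase) and hsp16 (SPBC3E7.02c, a small heat shock protein) had 0 cDNAs in all 4 libraries. This allows a share of up to 0.0123% and 0.0112% in the Mkt1-HTP libraries, and up to 0.172% and 0.0368% in the untagged controls. No cDNA under any gene name lay on the sense strand of either locus.

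**Figure D1:**
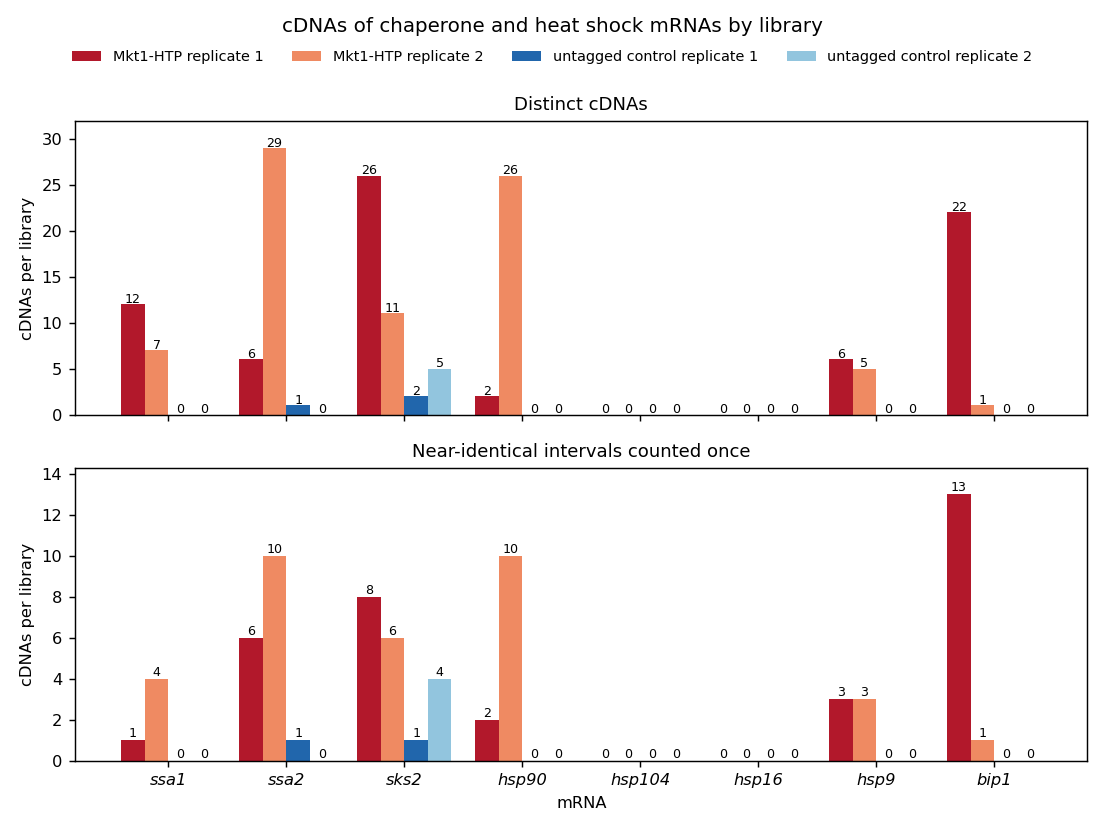
Bars give the number of distinct cDNAs of each mRNA (x axis) in each of the 4 libraries, all of them in the upper panel and with near-identical intervals counted once in the lower panel. hsp90 is high in Mkt1-HTP replicate 2 (26 cDNAs) and bip1 in replicate 1 (22 cDNAs), sks2 alone has cDNAs in all 4 libraries, and hsp104 and hsp16 have none.

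None of the 8 mRNAs was called different between Mkt1-HTP and untagged control. The edgeR fit took genes with 10 or more cDNAs over the 4 libraries, which 6 of the 8 passed, 4 of them without any control cDNA. Of the 418 genes tested, 13 were higher in Mkt1-HTP (3.11%) and 7 were higher in the untagged control (1.67%) at an adjusted p under 0.05, and 55 (13.2%) had an unadjusted p under 0.05 in either direction. With mRNA cDNAs as library size, 0 genes were called higher and 10 lower in Mkt1-HTP. Of the 6 tested chaperone mRNAs, 0 were called in either direction, 0 had an unadjusted p under 0.05, and the smallest adjusted p was 0.379. DESeq2 on the same counts gave an adjusted p for sks2 alone (0.901) and none for the other 5, which were therefore not open to a call. The median log2 fold change was 5.16 over the 6 and 4.77 over all 418 genes. No control cDNA was found for 4 of the 6 and for 248 of the 418, so that these fitted values depend on the model and are no measured fold. From mean CPM, with a strain that had no cDNA of a gene set to its floor of 3 counts, the median log2 ratio was 0.47 over the 6 and 0.09 over the 418. The control side of 4 of the 6 and of 248 of the 418 ratios is this floor, so that these medians are no measured fold either. They include hsp9, for which no fold can be given.

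The 3 classes were compared per length of mRNA and per library. Cytosolic Hsp70 mRNAs made up 44 of 74 cDNAs of the group (59.5%, Wilson 95% interval 48.1 to 69.9%) in Mkt1-HTP replicate 1 and 47 of 79 (59.5%, 48.5 to 69.6%) in replicate 2, compared with 3 of 3 and 5 of 5 in the untagged controls. These intervals cover counting error only. At 265 and 257 CPM per kb of mRNA in Mkt1-HTP libraries, compared with 253 and 90.4 in the untagged controls, the class as a whole was even between the Mkt1-HTP replicates, although its genes were not. Hsp90 had 31.7 and 374 CPM per kb in Mkt1-HTP libraries, compared with 0 and 0 in the controls. The other chaperones had 155 and 30.3 CPM per kb in Mkt1-HTP libraries, compared with 0 and 0 in the controls. As a share of the group's cDNAs, Hsp90 thus accounted for 2 of 74 and 26 of 79 (32.9%) in the Mkt1-HTP replicates, and the other chaperones for 37.8% and 7.59%.

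All 8 genes together made up 0.302% and 0.294% of distinct cDNAs in Mkt1-HTP libraries, compared with 0.172% and 0.0614% in the untagged controls. The groups did not overlap, but an exact permutation test (two-sided) of 2 against 2 libraries cannot go below p = 0.333, the value obtained. Taken over mRNA cDNAs alone the order turned round, with 0.623% and 0.702% in Mkt1-HTP libraries, compared with 1.91% and 1.04% in the controls, also at p = 0.333 in the exact test. The untagged controls rest on 3 and 5 cDNAs of the group here.

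Among the 1701 mRNAs with a cDNA in Mkt1-HTP, the 6 detected mRNAs stood in the upper part by mean CPM per kb, and none was near the top. sks2 ranked 95 (348 CPM per kb), hsp9 119 (299), ssa2 126 (289), hsp90 187 (203), bip1 230 (168) and ssa1 245 (157). Given the gaps between replicates, neighbours in this order do not differ beyond their spread. sam1, the S-adenosylmethionine synthetase mRNA at rank 1, reached 33557 CPM per kb, and the actin mRNA act1 had 442.

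**Figure D2:**
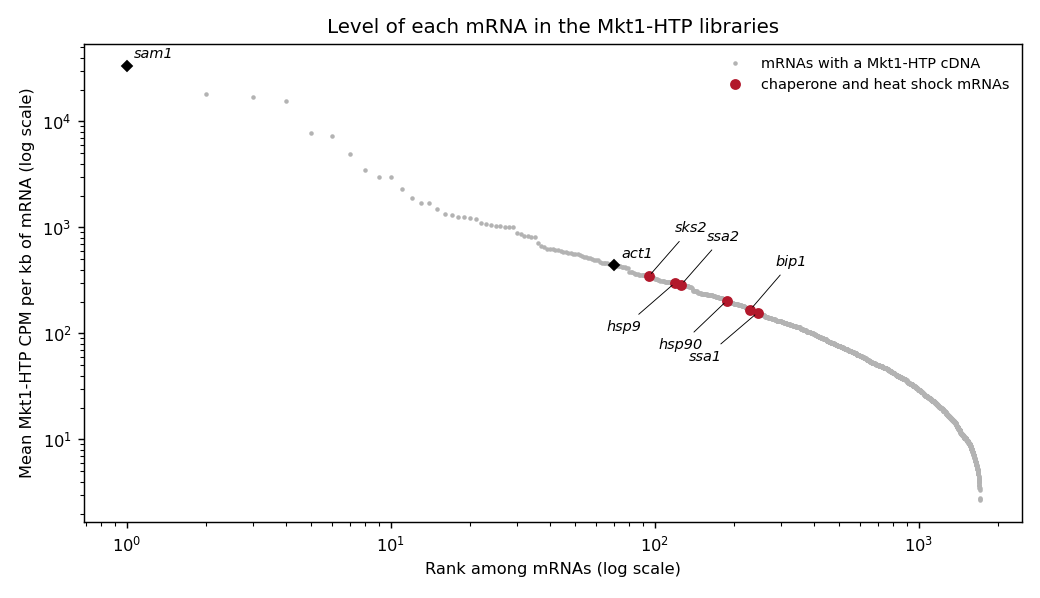
Each point is an mRNA, with its mean CPM per kb of mRNA over both Mkt1-HTP libraries (y axis, log scale) against its rank among 1701 mRNAs (x axis, log scale). The 6 chaperone and heat shock mRNAs lie between 157 and 348 CPM per kb at ranks 95 to 245, far below sam1 at rank 1 and below act1.

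The detected mRNAs also differed in where along their length the cDNAs lay. A site is a chain of overlapping cDNAs of the same library. In sks2, both Mkt1-HTP replicates had a site at the end of the coding sequence and the start of the 3′ UTR. It held 9 cDNAs from 24 nt before to 61 nt after the stop codon in replicate 1, and 8 cDNAs from 21 nt before to 85 nt after it in replicate 2. These were 3 and 4 near-identical groups. Here 2 intervals were the same to the base in both Mkt1-HTP libraries. The 30 nt window shown above, 16 to 45 nt after the stop codon, was overlapped by 9 and 7 Mkt1-HTP cDNAs, and by 2 and 0 in the untagged controls. Both sks2 cDNAs of control replicate 1 therefore fell at the site that the tagged libraries share. The 5 cDNAs of control replicate 2 lay elsewhere, in 85 nt of coding sequence about 24.5% along the mRNA, and shared 1 5′ end.

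Of the other sks2 cDNAs in the coding sequence, 6 cDNAs of replicate 1 lay about 75.8% along the mRNA and 3 cDNAs of replicate 2 about 81.3% along it, with no overlap between them.

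ssa2 was also recovered around its stop codon in both Mkt1-HTP replicates. In replicate 2, 16 of 29 cDNAs formed a site of 214 nt from 100 nt before to 113 nt after the stop codon, and 5 of the 6 cDNAs of replicate 1 overlapped it, as did the only control cDNA. A single interval was the same to the base in both replicates. The 16 cDNAs of the site in replicate 2 were 5 near-identical groups. Within this site the pair of U at III:2059210-2059211, 24 and 25 nt after the stop codon, was deleted in 6 of the 7 cDNAs of replicate 2 that covered the first base and in 6 of the 8 that covered the other. The 6 cDNAs with this deletion all belonged to the same near-identical group. The single cDNA of replicate 1 over III:2059211 had no deletion. The pair begins a run of 4 U, so that the deleted U within the run is not certain. The remaining ssa2 cDNAs of replicate 2 were spread over the 5′ UTR (2 cDNAs) and the coding sequence.

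In ssa1, by contrast, no cDNA lay in the last 20% of the mRNA. All 12 cDNAs of Mkt1-HTP replicate 1 lay within 67 nt in the middle of the coding sequence, about 49.9% along the mRNA, and counted as 1 near-identical group. The 7 cDNAs of replicate 2 lay at other places, 5 about 66.0% and 2 about 34.8% along the mRNA. No base of ssa1 was covered in both Mkt1-HTP replicates, which makes the evenness of its counts a sum over different sites.

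hsp90 cDNAs of Mkt1-HTP replicate 2 formed a site of 13 cDNAs in the 3′ UTR, 30 to 153 nt after the stop codon, and one of 10 cDNAs in the coding sequence, 309 to 381 nt before the end of the coding sequence. These were 5 and 3 near-identical groups. Both hsp90 cDNAs of replicate 1 overlapped the 3′ UTR site, one of them by only 2 nt, the other end of which reached the annotated end of the mRNA. The hsp90 window shown above, 35 to 64 nt after the stop codon, was overlapped by 1 and 9 Mkt1-HTP cDNAs and by none from the untagged controls. Its capitals mark a pair of U deleted in both replicate 2 cDNAs that covered it and not in the 1 cDNA of replicate 1 that did. The pair is part of a longer run of U, so that here too the deleted U is not certain. This window was chosen after the deletions had been seen.

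The cDNAs of bip1 in Mkt1-HTP replicate 1 lay almost entirely in its long 3′ UTR of 619 nt. There were 20 of 22 in the 3′ UTR, and 15 of them formed a site of 101 nt, 366 to 466 nt after the stop codon. The 15 were 7 near-identical groups. All 15 overlapped the window shown above, in which 53.3% of bases were U. The single cDNA of replicate 2 lay in the coding sequence, about 26.1% along the mRNA. In hsp9, whose 3′ UTR takes up 442 of 720 nt, 6 of 6 cDNAs of replicate 1 and 3 of 5 of replicate 2 had their middle in the 3′ UTR. The sites of both replicates adjoined at 241 to 272 and 271 to 345 nt after the stop codon and had 2 bases in common.

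**Figure D3:**
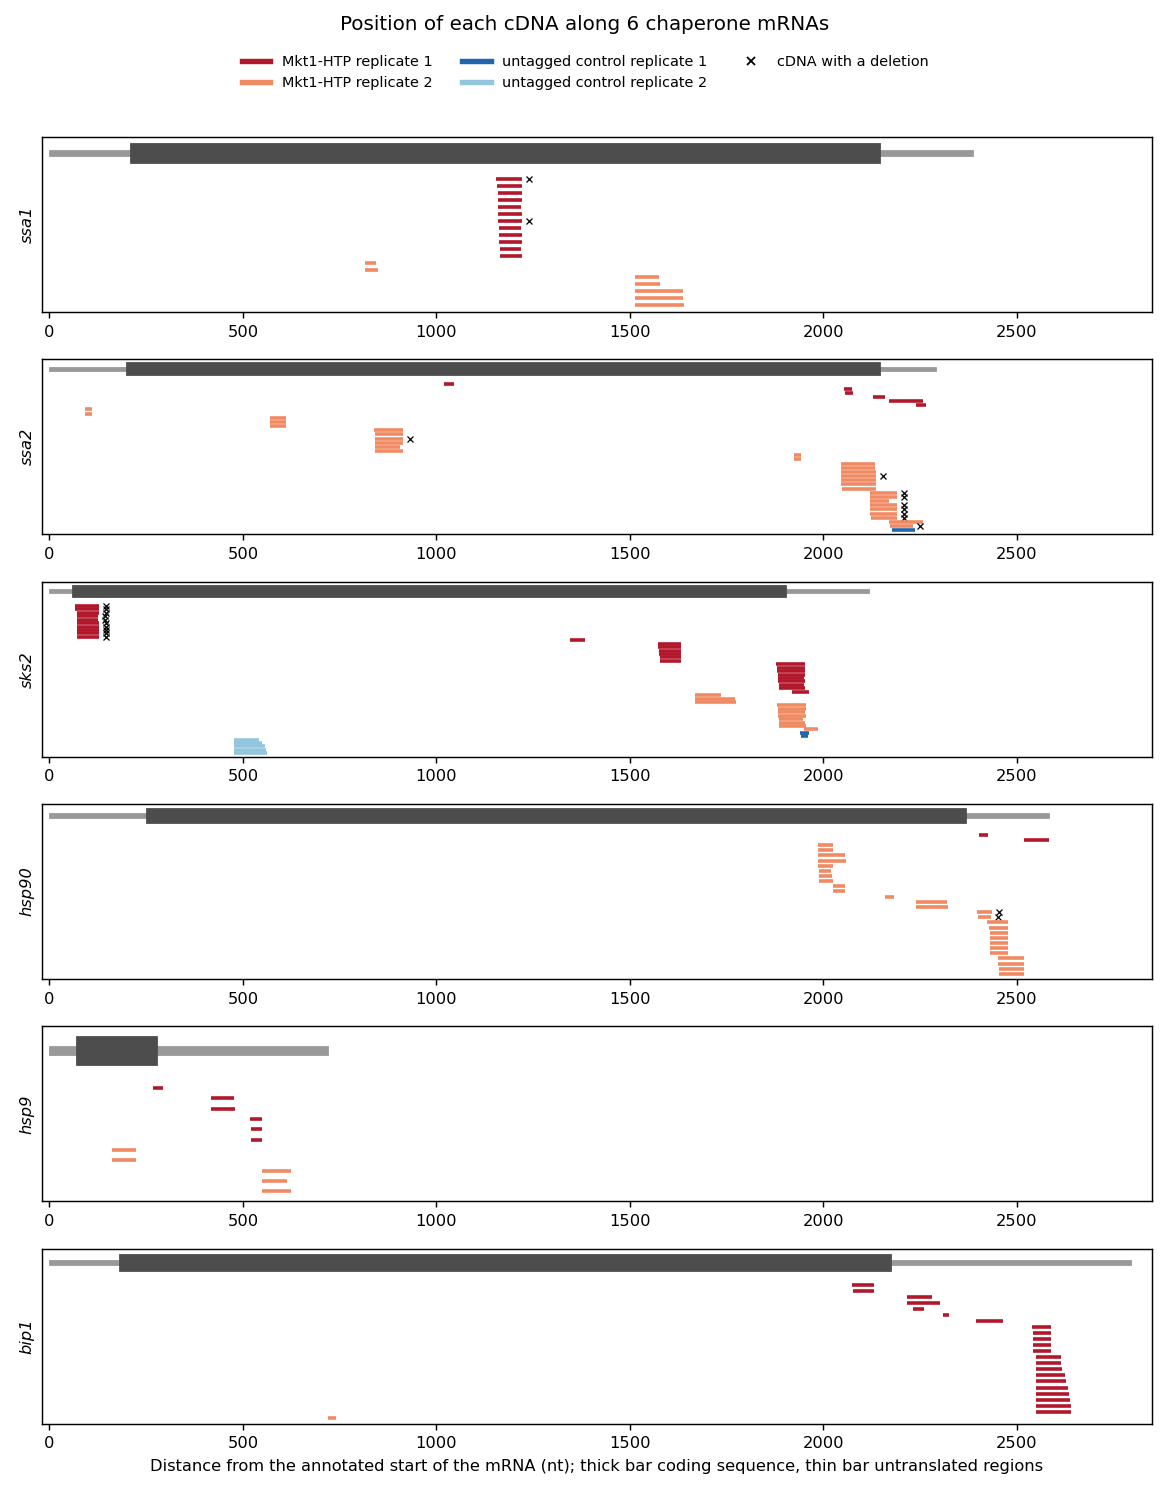
Each horizontal line is 1 cDNA, drawn at its distance from the annotated start of the mRNA in nt (x axis), with Mkt1-HTP libraries above untagged controls and a cross beside cDNAs that carry a deletion. Grey bars show the coding sequence (thick) and untranslated regions (thin). sks2 and ssa2 have cDNAs of both Mkt1-HTP replicates around the stop codon, whereas the ssa1 cDNAs of the replicates lie apart in the coding sequence.

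With a reciprocal overlap of 50% as the condition, 12 of 74 cDNAs of the group in Mkt1-HTP replicate 1 (16.2%) and 12 of 79 in replicate 2 (15.2%) had a partner in the other replicate, all in sks2, ssa2 and hsp90. Other mRNAs of like depth, the 217 with 11 to 37 cDNAs in Mkt1-HTP, were similarly uneven. A gap of over 10-fold in CPM between the replicates was found for 2 of 6 chaperone mRNAs and for 71 of 217 other mRNAs (32.7%). The median share of cDNAs with a partner was 5.36% over the 6 and 0% over the 217, whose upper quartile was 22.6%. These are descriptions of the libraries, and the difference was not tested.

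In Mkt1-HTP, the middle of the cDNA lay in the last 20% of the mRNA for 36 of 74 cDNAs of the group (48.6%, Wilson 95% interval 37.6 to 59.8%) in replicate 1 and for 48 of 79 (60.8%, 49.7 to 70.8%) in replicate 2, compared with 3 of 3 and 0 of 5 in the untagged controls. The mean difference of 4.70 percentage points was smaller than the spread between the controls (exact permutation p = 1, two-sided). Over all other mRNAs this share was 69.2% and 69.1% in Mkt1-HTP libraries, compared with 55.8% and 30.6% in the controls. The group thus lay below the other mRNAs in both Mkt1-HTP libraries, with intervals apart in replicate 1 and overlapping in replicate 2. These intervals cover counting error only and count near-identical cDNAs each. In replicate 1 the 12 ssa1 cDNAs, none of them in the last 20%, were 1 near-identical group. With near-identical cDNAs counted once, the gap of Mkt1-HTP over control was 14.2 percentage points. Per gene the picture was another. The median mRNA of like depth had 33.3% of its Mkt1-HTP cDNAs in the last 20%, while the 6 chaperone mRNAs ranged between 0% for ssa1 and 87.0% for bip1, with a median of 59.2%.

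The 3′ UTR held 52.7% and 41.8% of the group's cDNAs in Mkt1-HTP libraries, compared with 3 of 3 and 0 of 5 in the untagged controls, and the coding sequence held 47.3% and 55.7% in Mkt1-HTP. For all other mRNAs the 3′ UTR share was 69.6% in each Mkt1-HTP library. This share pools cDNAs, so that mRNAs with many of them weigh most, sam1 alone having 1535 and 1544. No comparison per gene was made for the 3′ UTR. The 3′ UTR takes up 6.34% of the ssa2 mRNA, 8.37% of hsp90, 10.02% of ssa1, 10.1% of sks2, 22.2% of bip1 and 61.4% of hsp9.

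U content of the recovered stretches differed between members. The averages take every cDNA of all 4 libraries and count near-identical cDNAs each. Untagged controls gave 7 of the 44 cDNAs of sks2 and 1 of the 36 of ssa2. The cDNA intervals averaged 42.4% U in bip1 (whole mRNA 33.4%), 39.8% in hsp9 (32.9%), 37.8% in hsp90 (30.4%) and 33.9% in sks2 (29.9%), each above its mRNA. ssa2 intervals had 29.8% U, the value of the whole mRNA, and ssa1 intervals had 28.3% against 30.6% for its mRNA. The whole 3′ UTRs had 42.0% U in bip1, 41.7% in hsp90, 39.3% in ssa1, 37.9% in ssa2, 37.1% in hsp9 and 33.6% in sks2.

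Deletions were found in 12 of 74 cDNAs of the group in Mkt1-HTP replicate 1 (16.2%, Wilson 95% interval 9.53 to 26.2%) and in 11 of 79 in replicate 2 (13.9%, 7.96 to 23.2%), against 0 of 3 and 0 of 5 in the untagged controls. With 3 and 5 cDNAs, the upper limits of the control shares were 56.1% and 43.4%, so that a difference was not detectable at this depth (exact permutation p = 0.333, two-sided, the smallest possible). All other mRNAs had deletions in 13.4% and 24.9% of cDNAs in Mkt1-HTP libraries, compared with 3.90% and 24.1% in the controls. Per gene, the median share was 8.83% over 6 chaperone mRNAs and 12.0% over the 217 mRNAs of like depth. In the group, 3 of the 12 cDNAs with a deletion in replicate 1 and 10 of the 11 in replicate 2 lacked 2 or more bases. The most in 1 cDNA were 2 bases in replicate 1 and 12 in replicate 2. The deletions of the group came from 2 genes in each Mkt1-HTP library. sks2 gave 10 and ssa1 2 in replicate 1, and ssa2 gave 9 and hsp90 2 in replicate 2, whereas bip1 and hsp9 had none in 23 and 11 cDNAs. In replicate 1 the 10 of sks2 were 2 near-identical groups, and the 2 of ssa1 were in 1. In replicate 2, 6 of the 9 of ssa2 were in the same group. The intervals above count such cDNAs each and cover counting error only.

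**Figure D4:**
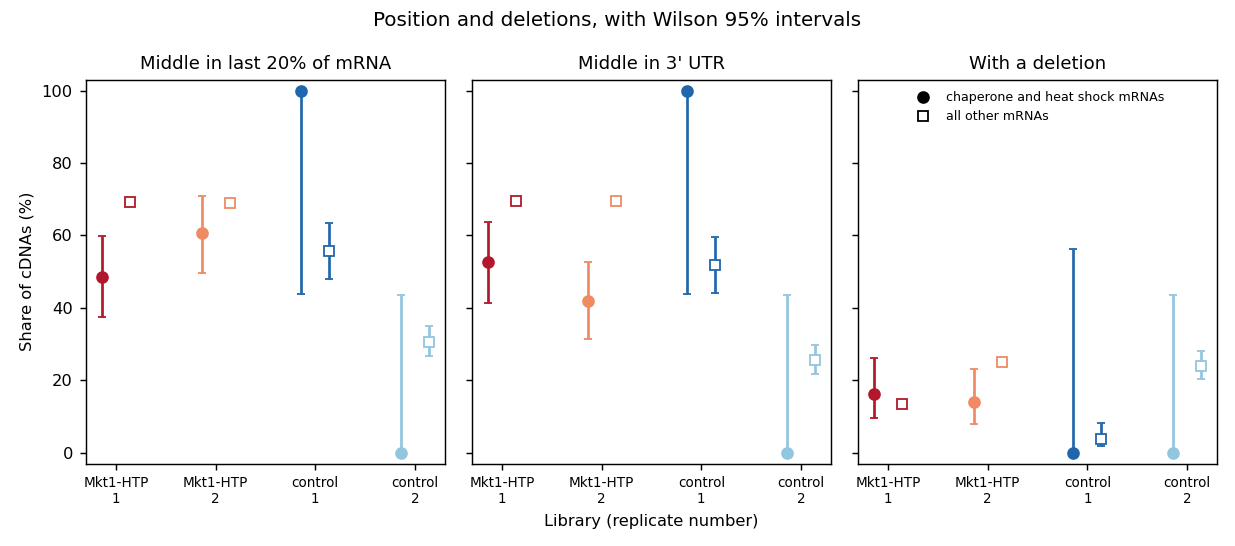
Points give the share of cDNAs in percent (y axis) whose middle falls in the last 20% of the mRNA or in the 3′ UTR, and with a deletion, in each library (x axis); filled circles are the 8 chaperone and heat shock genes, open squares all other mRNAs, and bars Wilson 95% intervals. The filled circles of the controls rest on 3 and 5 cDNAs and have intervals over 40 percentage points wide, and in Mkt1-HTP replicate 1 the group lies below other mRNAs in the last 20% (48.6% and 69.2%). The squares pool cDNAs, so that mRNAs with many of them weigh most. Per gene the order in the last 20% was the other way, with a median of 59.2% over 6 chaperone mRNAs and 33.3% over 217 mRNAs of like depth.

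A wider list of 47 further genes was set beside the group, taking in co-chaperones of Hsp70 and Hsp90, chaperonins, small heat shock and endoplasmic reticulum folding factors and hsf1. Of these 43 could be matched, 26 had a cDNA in Mkt1-HTP and 3 had one in the untagged controls. Together they had 68 and 81 cDNAs in Mkt1-HTP libraries, compared with 0 and 6 in the controls. Only 4 had enough cDNAs to be tested, and 0 of the 4 were called higher and 0 lower in edgeR. Over all 418 genes tested, 3.11% were called higher and 1.67% lower, so that 0 of 4 is no result about these mRNAs. ssc1, the mitochondrial Hsp70, had 12 and 17 cDNAs in Mkt1-HTP libraries, compared with 0 and 2 in the controls, with an adjusted p of 0.484. mcp60, the mitochondrial chaperonin, had 15 and 5 in Mkt1-HTP and none in either control (adjusted p = 0.423). Its partner hsp10 had 0 and 13 in Mkt1-HTP and none in either control (adjusted p = 0.484). ppi1, a peptidyl-prolyl isomerase, had 5 and 3 in Mkt1-HTP and none in the controls. The mRNAs of cnx1 (calnexin), mdj1 (a mitochondrial J-domain protein), ssz1 (an Hsp70 of the ribosome-associated complex) and wos2 (a co-chaperone of Hsp90) had 7 cDNAs each in Mkt1-HTP, and mdj1 had 0 and 3 in the controls. No cDNA was seen for hsf1.

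For the pair of members with most Mkt1-HTP cDNAs, sks2 and ssa2, the genes of most similar level were looked up by Euclidean distance of log2(CPM + 50) over the 4 libraries. The nearest gene to sks2 was act1 at a distance of 0.31, with 30 and 11 cDNAs in Mkt1-HTP libraries, compared with 2 and 6 in the untagged controls. SPBTRNAARG.05 and SPCTRNATHR.09, both tRNA genes, followed at 1.42 and 1.45. As the authors filtered out tRNA reads before alignment, the counts of these tRNA genes are what that step left and no measure of recovery. For ssa2 the nearest were ksp1 (1.20), but2 (1.24) and cpy1 (1.24). ksp1 had 5 and 12 cDNAs in Mkt1-HTP libraries, compared with 1 and 0 in the controls.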

How the data were processed

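CRAC libraries were deposited as counts of distinct cDNAs, 1 row for each. Before that, per the file headers and the methods, the authors demultiplexed and trimmed the reads, collapsed PCR duplicates, filtered out tRNA reads (STAR 2.7.1a), aligned the rest to ASM294v2 (Novoalign 3.09.02) and assigned genes with pyReadCounters (Counters 1.4.4), keeping deletions. cDNAs that differ at an end are separate rows, and intervals with both ends within 2 nt were also counted once.

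Groups and replicate numbers were taken from sample titles. The study calls the libraries biological replicates. The members and gene lists were chosen with earlier results of these data known. Named genes were all 8 members, the 6 wider-list genes with most Mkt1-HTP cDNAs (with ties) and the 3 genes nearest to each of the leading pair.

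Counts per gene and strand were scaled by all distinct cDNAs and tested in edgeR 4.0.16 (quasi-likelihood, no block, minimum of 10 cDNAs over 4 libraries, Benjamini-Hochberg), with DESeq2 1.42.0 among the alternatives. The test was first tried on simulated counts. Mkt1-HTP and control libraries of the same number carry the same sequencing index, which pairs them by pool, although the labels disagree on which adapter marks which number. Deviations from the group means correlated at 0.07 within pairs over 418 genes. The correlation was -0.04 over the 27 genes with 10 or more control cDNAs. Of the 418 genes, 248 had no control cDNA and so no deviation between the controls. The value over 418 genes therefore cannot decide whether the pairing matters. RefSeq ASM294v3 gave gene models and sequences: 98.0% of gene IDs were found there, and 99.7% of cDNAs with 1 gene overlapped that gene. One sequence stretch of sks2 is not reported here.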

Additional observations from a re-analysis of the deposited data

How the results depend on the processing

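No chaperone mRNA was called in any of the 11 alternatives, with adjusted p between 0.15 and 1 where one was given. DESeq2 gave none for 5 of the 6. The number of all genes called was 20, 13 of them higher in Mkt1-HTP, against 10 (0 higher, 10 lower) with mRNA cDNAs as library size, 12 with no minimum count, 7 (5 higher, 2 lower) with the replicate block for the shared index, and 3 to 32 when 1 library was left out (3 without Mkt1-HTP replicate 1, 0 of them higher, 4 without Mkt1-HTP replicate 2 and 32 without untagged control replicate 1). The block changed no call of a chaperone mRNA. With mRNA cDNAs as library size the log2 fold change of ssa2 turned to -0.30 and that of sks2 was -2.82 (adjusted p = 0.532). With 1 library left out that of sks2, -0.11, ran between -1.01 without Mkt1-HTP replicate 1 and 0.33 without Mkt1-HTP replicate 2 (0.25 without control replicate 1). The gap of Mkt1-HTP over control in the share of all cDNAs, 0.181 percentage points, was -0.81 over mRNA cDNAs. Counting near-identical intervals once moved the gap in the cytosolic Hsp70 share to -47.9 (from -40.5) and in deletions to 8.91 (from 15.1) percentage points. The gap in the last 20% of the mRNA, 4.70 points, ran between -45.3 (without control replicate 2) and 54.7 (without control replicate 1) with 1 library left out. ssa1 and hsp9 fell below the minimum with near-identical intervals counted once. Without sks2, control replicate 2 has no cDNA of the group, so the gaps in the last 20% and in deletions could not be had without it. The causes were not tested. The controls held 8 cDNAs of the group in all.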
